A study of Mus musculus with 2 samples.

Results

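The genes described here are inhibitors of cyclin-dependent kinases (CDKs) and genes of the p53 pathway, measured in primary mouse keratinocytes. They are 10 genes fixed by name and picked out by symbol, in a list drawn up with earlier results of these data known. They are the CDK inhibitors Cdkn1a, Cdkn1b, Cdkn2a, Cdkn2b and Cdkn2c, and the p53 pathway genes Trp53, Mdm2, Ccng1, Pmaip1 and Bbc3. Of these, 9 carried at least 1 of the 15 probe sets with a single matching symbol, out of 18193 genes and 45101 probe sets on the array. Trp53 was not analysed here, because no probe set carried its symbol in the platform annotation used.

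The cells were epidermal keratinocytes grown on collagen from the skin of newborn C57BL/6 mice and used as primary cultures. The control culture is titled MED1flox/flox and its source is given as wild-type mice. The other culture is titled MED1epi-/- and came from mice that carried K5Cre, a Cre recombinase under the keratin 5 promoter, with MED1flox/flox, so that the allele was to be lost in keratin 5-expressing cells. MED1 belongs to Mediator, which connects transcription factors with RNA polymerase II. Whether either culture pooled several newborn mice, and whether the control mice carried K5Cre, is not given in the sources used here. RNA of each culture was hybridised to 1 Affymetrix mouse expression array, so each group has 1 sample. Cultures therefore cannot be tested against each other, and having only 2 arrays limits how precise any value below can be.

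CDK inhibitors restrain the kinases that drive a cell from G1 into DNA synthesis. The INK4 proteins, encoded by Cdkn2a, Cdkn2b and Cdkn2c, bind CDK4 and CDK6, whereas the CIP/KIP proteins p21 (Cdkn1a) and p27 (Cdkn1b) bind cyclin-CDK complexes more broadly. In epidermis, p21 and p27 are known from the withdrawal of keratinocytes from the cell cycle as they leave the basal layer. The transcription factor p53 is stabilised after DNA damage and activates Cdkn1a, the cyclin G1 gene Ccng1, the BH3-only death genes Pmaip1 (Noxa) and Bbc3 (Puma), and Mdm2, whose product marks p53 for degradation and so closes a feedback loop.

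The sequences before the transcription start are shown because p53 acts by binding DNA near its target genes. RefSeq windows of the 250 bases before each start (build GRCm38.p6) were found for 8 members, 13 windows in all, and no window of Trp53 or Pmaip1 was searched. The p53 half-site decamer, by its standard consensus, which reads the same on both strands, was present in windows of 3 members, Cdkn1a, Mdm2 and Ccng1. Only exact matches were counted, so p53 sites that depart from the consensus at any base were not marked. An exact match was present in 7.13% of all 32851 windows of this length. The windows are printed 5′ to 3′ on the strand of the gene, with the half-sites in capitals for these 3 genes. That of Cdkn1a lies at chr17:29090729-29090978 on the plus strand, that of Mdm2 at chr10:117710759-117711008 on the minus strand, and that of Ccng1 at chr11:40755287-40755536 on the minus strand. Bbc3, at chr7:16309333-16309582 on the plus strand, is shown as the 1 member past 1.5-fold, with GC boxes (GGGCGG, either strand) in capitals.
Cdkn1a: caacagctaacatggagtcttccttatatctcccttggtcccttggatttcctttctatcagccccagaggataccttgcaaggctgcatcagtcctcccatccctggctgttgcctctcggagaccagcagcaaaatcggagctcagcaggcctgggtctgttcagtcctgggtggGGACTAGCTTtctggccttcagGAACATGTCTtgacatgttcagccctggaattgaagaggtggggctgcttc
Mdm2: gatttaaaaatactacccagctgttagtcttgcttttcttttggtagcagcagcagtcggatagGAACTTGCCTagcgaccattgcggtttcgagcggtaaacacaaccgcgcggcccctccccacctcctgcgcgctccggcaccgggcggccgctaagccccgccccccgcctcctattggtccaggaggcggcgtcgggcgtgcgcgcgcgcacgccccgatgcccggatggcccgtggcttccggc
Ccng1: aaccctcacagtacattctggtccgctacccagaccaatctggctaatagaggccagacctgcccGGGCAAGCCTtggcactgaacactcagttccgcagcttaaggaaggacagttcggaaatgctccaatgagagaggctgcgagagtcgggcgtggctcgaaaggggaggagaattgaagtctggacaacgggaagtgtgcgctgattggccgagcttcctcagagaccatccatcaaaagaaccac
Bbc3: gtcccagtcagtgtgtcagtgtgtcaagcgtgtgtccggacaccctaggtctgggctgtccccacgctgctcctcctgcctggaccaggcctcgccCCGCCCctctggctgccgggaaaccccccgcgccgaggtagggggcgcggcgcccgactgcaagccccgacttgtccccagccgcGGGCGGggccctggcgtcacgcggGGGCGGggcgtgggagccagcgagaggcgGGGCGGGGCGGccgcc

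Cdkn1a held a pair of exact half-sites, GGACTAGCTT and GAACATGTCT, 12 bases apart. A full p53 site, counted only as 2 such exact decamers 0 to 13 bases apart, was found in 0.0639% of all windows (21 of 32851). The pair lies before the first of the 2 Cdkn1a starts in the table, which are 2790 bases apart, and the window of the second start held none. Mdm2 held GAACTTGCCT, beginning 186 bases before the start, and Ccng1 held GGGCAAGCCT, beginning 185 bases before it. The Bbc3 window shown held 5 GC boxes, a pair of which overlap by a base, and 32.7% of all windows held at least 1. Windows of Mdm2 (2 boxes, not in capitals above), Cdkn1a (2, before its second start), Cdkn1b (1), Cdkn2a (2) and Cdkn2c (3) held GC boxes too. None of the 3 Bbc3 windows held an exact match to the half-site, and sites with a mismatch were not searched for. A CCAAT box (CCAAT, either strand, in 33.8% of all windows) was found in windows of Ccng1, Mdm2, Cdkn1b and Bbc3, and an E2F site (TTTCCCGC or TTTGGCGC, either strand, 1.3% of all windows) in a window of Cdkn2a. A match describes these letters only and shows no binding. Sites outside these windows were not searched, nor were p53 sites with a mismatch inside them. The capitals therefore need not mark the p53 sites of these genes, and a window without an exact match may still hold one.

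Of the 8 members measured on either array, none was 2-fold apart, where 3.86% of all 11621 measured genes were. By a 1.5-fold rule, 1 of the 8 was called, Bbc3, against 15.1% of all measured genes, and Cdkn2b joined it, to make 2, under each of 3 rescalings of the arrays. The counts as reported are near the shares over all genes and are no result particular to the members. The median log2 ratio of the array labelled MED1-null over the control array was 0.03 for the 8 members and 0.06 for all measured genes. Of the members 4 lay above 0 and 4 below, beside 6632 and 4984 of all 11621 measured genes. The median of the members was -0.03 with both arrays centred on their median ratio and -0.01 when all probe sets of a gene were averaged. Here a gene counts as measured where its signal reached 67.7, the median of all probe sets that are not controls, and lower signals were set to this floor ahead of the log2 step. Each gene was read from its probe set with the highest mean signal. Signals are compared between the arrays for the same probe set and not between genes, since probe sets differ in how brightly they hybridise.

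**Figure D1:**
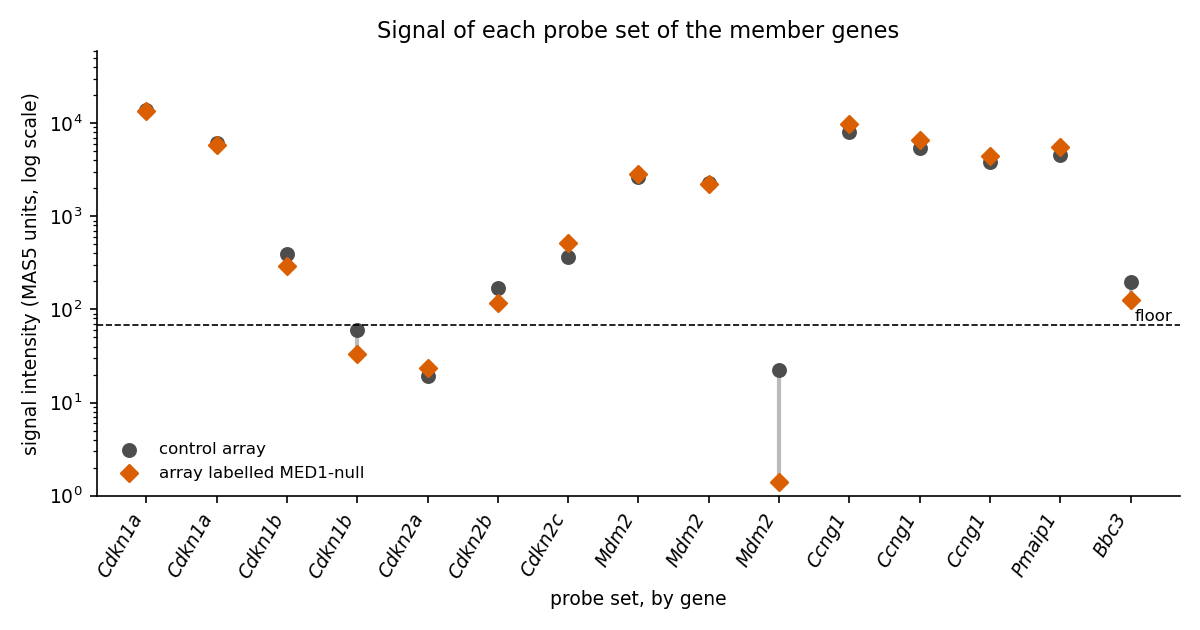
Signal intensity (MAS5 units, log scale) of each of the 15 probe sets of the 9 members with any, on the control array (circles) and the array labelled MED1-null (diamonds), with the floor of 67.7 as a dashed line. The 12 probe sets above the floor have their symbols close together, and the 3 below it belong to Cdkn1b, Cdkn2a and Mdm2.

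Some facts of the arrays bear on every direction given here. Med1 itself gave signals of 462.7 (control) and 1039 (labelled MED1-null), and its 6 measured probe sets, of 7, were higher on the latter, with log2 ratios from 0.55 to 1.57. That is the opposite direction to a loss of Med1 signal. The labels do not say which part of the gene was deleted, so these values do not check the deletion. Whether each label belongs to its array was not tested either, and all directions here follow the labels. Xist read 5461 and 55.7 and the Y-linked Eif2s3y 4.2 and 2164, so that sex-linked transcripts and genotype label cannot be told apart. Keratinocyte markers were present on both arrays, 9 of 10 at or above the floor on each. Krt14 was highest (32905 and 36849), and Krt1, a keratin of differentiating cells, was below the floor (28.2 and 56.8). Krt10, a further keratin of this list, read 194.6 and 251.3, above the floor on both arrays. Fibroblast markers summed to 3370 on the control array and 1449 on the other, with 6 and 3 of 8 at the floor. By mean signal over both arrays, Sparc was highest of these (2709 and 1034) and Col1a1 lowest (42.3 and 14.1). Melanocyte markers summed to 25056 and 19507, with all 8 at or above the floor on both arrays. Tyrp1 was highest of these (9346 and 6715) and Sox10 lowest (259.9 and 261.3) by the same mean. Kit, a receptor of melanocytes, was the 1 melanocyte marker past 2-fold (409.5 and 136.8, 2.99-fold lower). Endothelial (1 of 4, Kdr at 80.5 and 51.6, with Tek lowest by that mean at 30.4 and 1.0) and immune markers (1 of 5, Lyz2 at 104.0 and 121.5, with Cd207 lowest by that mean at 5.8 and 7.3) were near or below the floor. The part of these other cells in the members' values was not tested, and in bulk RNA fewer cells of a type and less RNA per cell cannot be told apart.

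Cdkn1a, which encodes the p53-induced inhibitor p21, gave 13734 (control) and 13511 (labelled MED1-null) by its brighter probe set. Its log2 ratio was -0.02, a 1.02-fold difference, and 0.05 after quantile normalization. The other Cdkn1a probe set read 6073 and 5807, with a log2 ratio of -0.06. Both probe sets thus gave nearly equal signal on the 2 arrays, far above the floor.

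Cdkn1b, which encodes p27, an inhibitor held mainly by protein turnover, read 398.4 and 296.2. The second value is 1.35-fold lower (log2 ratio -0.43). A further Cdkn1b probe set read 60.7 and 33.6, below the floor on both arrays, and gives no ratio. The value of Cdkn1b therefore rests on 1 probe set.

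The INK4 genes were read by 1 probe set each, and the measured ones went in opposite directions. Cdkn2b, which encodes p15, a known TGF-beta-induced inhibitor, read 172.1 and 116.9, or 1.47-fold lower (log2 ratio -0.56). Cdkn2c, which encodes p18, read 362.8 and 513.2, or 1.41-fold higher (log2 ratio 0.50). The log2 ratios of Cdkn2c and Cdkn2b were 1.06 apart. Cdkn2a, whose locus encodes both p16 and the MDM2 inhibitor ARF from different first exons, read 19.5 and 23.3. Cdkn2a was thus below the floor on both arrays and gives no ratio. Among the 4 measured CDK inhibitors 1 was above 0 and 3 were below, and their median log2 ratio was -0.23.

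Mdm2, the p53 ubiquitin ligase and itself a p53 target, read 2663 and 2836 by its brightest probe set (log2 ratio 0.09, 1.06-fold higher). The next Mdm2 probe set read 2262 and 2238 (log2 ratio -0.02), so that the direction differed between them while both ratios were close to 0. The remaining one read 22.6 and 1.4, below the floor on both arrays. Mdm2 thus showed near-equal signal on both arrays.

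Ccng1 encodes cyclin G1, a p53 target that takes part in the regulation of MDM2. It was the member with the most probe sets at or above the floor. They read 8146 and 9694, 5437 and 6597, and 3789 and 4466, control first. The log2 ratios were 0.25, 0.28 and 0.24, so the 3 probe sets of Ccng1 gave almost the same ratio, 1.18-fold to 1.21-fold higher.

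The death genes differed in direction. Pmaip1, which encodes Noxa, a BH3-only protein that binds MCL1, read 4598 and 5508 (log2 ratio 0.26, 1.20-fold higher). Bbc3, which encodes Puma, a BH3-only protein that binds the whole group of BCL2-like survival proteins, read 199.6 and 126.1 (log2 ratio -0.66, 1.58-fold lower). The log2 ratios of Pmaip1 and Bbc3 were 0.92 apart, and each gene has 1 probe set. Of the 4 measured p53 pathway members, 3 were above 0 and 1, Bbc3, was below, with a median of 0.17.

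Ordered by log2 ratio, the members ran from Bbc3 (-0.66) through Cdkn2b, Cdkn1b, Cdkn1a, Mdm2, Ccng1 and Pmaip1 to Cdkn2c (0.50). The only spread that 2 arrays give is how far ratios from probe sets of one gene scatter. Pooled over 4916 genes its SD was 0.31 on the log2 scale, or 0.43 for the difference between the ratios of 2 genes. It covers neither animals nor cultures. Each gap between neighbours in this order was smaller than 0.43, the widest being 0.40 between Cdkn1b and Cdkn1a. Neighbours in a sorted order lie close, so these gaps do not show that the members were alike. Cdkn2c and Cdkn2b were 1.06 apart and Pmaip1 and Bbc3 0.92, both wider than 0.43. That SD is pooled over all signal levels and is not specific to dim genes such as Cdkn2b and Bbc3. The ratios of Cdkn1a, Mdm2, Ccng1 and Pmaip1 lay within 0.31 of 0.

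The 4 members farthest from 0 were the 4 with mean signals under 16 times the floor. Bbc3 and Cdkn2b had mean signals under 4 times the floor (270.8), where 22.5% of 3717 measured genes were at least 1.5-fold apart in either direction and 9.34% at least 1.5-fold lower. Their ratios lay inside the range from -0.82 to 0.87 that holds all but the lowest and highest 5% of those genes. Cdkn1b and Cdkn2c lay from 4 to 16 times the floor (1083), where that range was -0.62 to 0.68 and 13.5% were 1.5-fold apart, and both lay inside it. The other 4 members had higher signals, where the range was -0.69 to 0.48 and 9.8% were 1.5-fold apart, and they too lay inside. No member therefore stood outside the bulk of the genes of its own signal range.

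**Figure D2:**
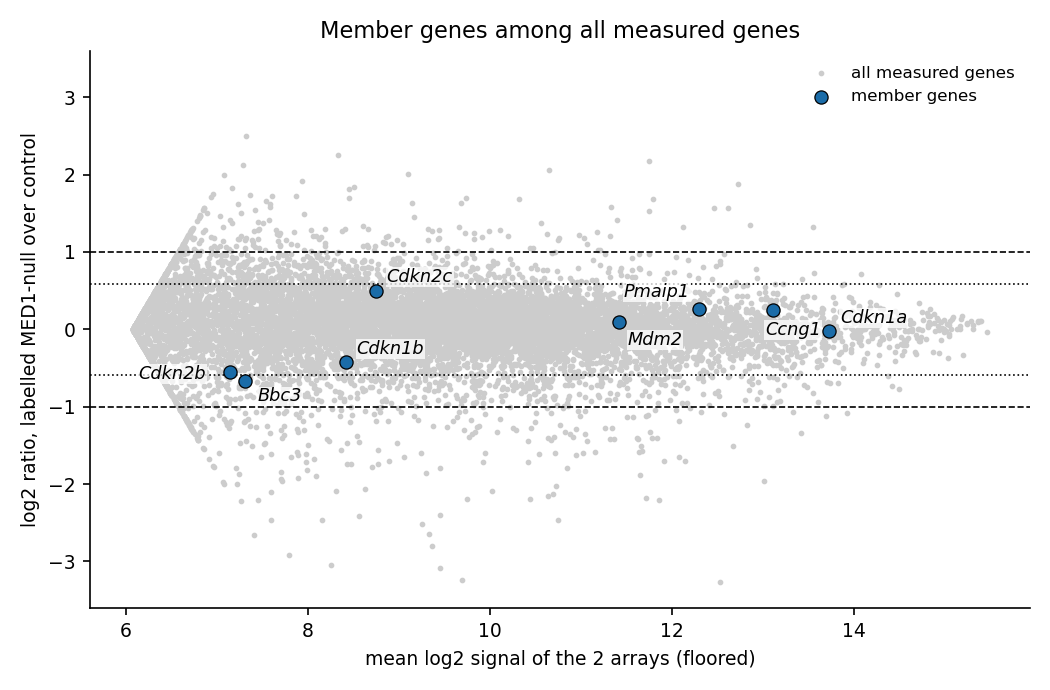
Log2 ratio of the array labelled MED1-null over the control array against the mean log2 signal of both arrays (signals below the floor raised to it), for all 11621 measured genes (grey) and the 8 measured members (blue), with dashed lines at 2-fold and dotted lines at 1.5-fold. The members lie inside the grey cloud, Bbc3 alone past a dotted line, and 2 genes beyond 3.6 in either direction, Xist and Eif2s3y, are off the plot.

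The genes around the members were examined from lists fixed by name, with earlier results of these data known. Each is set beside the median of 0.06 over all measured genes. Of all 11621 measured genes, 6632 lay above 0 and 4984 below, and the counts in each list are to be read beside these. The other CDK inhibitors and the pocket proteins were all within 1.5-fold (5 of 5 measured), with a median of 0.09 that was -0.03 and -0.05 after quantile and lowess normalization. Cdkn2d, the fourth INK4 gene, read 408.9 and 323.2 (1.27-fold lower), and Rbl1, which encodes the pocket protein p107, read 1135 and 1431 (1.26-fold higher), with its 2 measured probe sets in opposite directions. In the list of G1 cyclins, CDKs and E2F factors, which also holds Cdc25a, 15 of 16 genes were measured. There 5 were at least 1.5-fold higher and 0 lower, where 7.8% and 7.32% of all measured genes were, and 13 lay above 0, with a median of 0.28, or 0.17 with the floor at the 75th percentile.

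The values of the 5 higher genes follow. Whether the step from G1 into DNA synthesis differed between the cultures was not tested. Ccne2, which encodes cyclin E2, read 250.0 and 449.7 (1.80-fold), E2f1, the S phase transcription factor, 135.7 and 243.5 (1.79-fold), and Cdc25a, the phosphatase that activates CDK2, 518.5 and 894.5 (1.73-fold). Ccnd1, which encodes cyclin D1, read 2397 and 3839 (1.60-fold), and Ccne1, the cyclin E1 gene, 301.6 and 477.0 (1.58-fold). Cdk4 and Cdk6, the kinases that INK4 proteins bind, were 1.21-fold and 1.13-fold higher. The 2 measured genes below 0 were Ccnd2 (1.08-fold lower) and E2f5 (1.43-fold lower), named after their values were seen, and each had probe sets in both directions. The 3 probe sets of E2f5 ran from -0.52 to 3.17 on the log2 scale, and the 7 of Ccnd2 from -0.11 to 0.47. None of the 5 reached 2-fold. Their measured probe sets were all higher, although Ccne2 has only 1 and those of Cdc25a ran from 0.02 to 0.79. The smallest log2 ratio was 0.24 for Ccne1, 0.31 for Ccnd1 and 0.38 for E2f1. In each of these 3 genes and in Cdc25a, a probe set was thus under 1.5-fold. The mean signal of E2f1 was under 4 times the floor (270.8), where 22.5% of measured genes were at least 1.5-fold apart in either direction.

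The measured regulators of p53 were all within 2-fold. Of 18 measured, 2 were at least 1.5-fold higher and 0 lower, beside 7.8% and 7.32% of all measured genes. Of the 18, 14 lay above 0, beside 6632 of all 11621 measured genes. The median was 0.19, or 0.12 with the median ratio of all genes set to 0. Chek1, a DNA replication checkpoint kinase, read 190.8 and 301.1 (1.58-fold higher), with its 3 measured probe sets all higher. The mean signal of Chek1 was under 4 times the floor (270.8), where 22.5% of measured genes were at least 1.5-fold apart in either direction. Atm, the kinase that signals DNA double-strand breaks, read 265.3 and 400.4 (1.51-fold higher), but its other probe set was slightly lower (log2 ratio -0.08). Mdm4, the partner of MDM2, differed by 1.05-fold, with probe sets in both directions. Within the p53 family, Trp63, the master regulator of basal keratinocytes, read 7798 and 11736 (1.505-fold higher), and its 4 probe sets ran from 0.59 to 1.11. Trp73 read 30.2 and 77.9, at least 1.15-fold higher, since it was below the floor on the control array.

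Of 27 other p53 target genes measured, 20 lay above 0 and 7 below, beside 6632 and 4984 of all 11621 measured genes. The list had a median of 0.34 and a mean of 0.14. The median was 0.19 when all probe sets of a gene were averaged. By the 1.5-fold rule 3 were higher and 3 lower, beside 7.8% and 7.32% of all measured genes, and by the 2-fold rule 0 were higher and 2 lower, where 1.63% and 2.23% of all measured genes were. The higher genes were Eda2r, a death receptor (95.1 and 184.9, 1.94-fold), Polk, a translesion DNA polymerase (907.5 and 1633, 1.80-fold), and Btg2, an antiproliferative gene (780.2 and 1354, 1.74-fold). The lower ones were Plk3, a stress-responsive kinase (5953 and 2254, 2.64-fold), Ddit4, an inhibitor of mTORC1 (6683 and 3298, 2.03-fold), and Ak1, an adenylate kinase (1274 and 697.5, 1.83-fold). Both probe sets of Btg2 and of Polk were higher. Plk3, Ddit4, Ak1 and Eda2r have 1 measured probe set each. The mean signal of Eda2r was under 4 times the floor (270.8), where 22.5% of measured genes were at least 1.5-fold apart in either direction. Genes of this list, Plk3 and Ddit4 among them, are also known to respond to stresses other than p53 activation. The cause of the ratios in this list, higher or lower, was not tested.

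Genes of the BCL2 family, with which Noxa and Puma interact, lay within 1.5-fold. Of 14 genes 11 were measured. Of those, 9 lay below 0 and 2 above, beside 4984 and 6632 of all 11621 measured genes. The median was -0.23, or -0.10 with all probe sets of a gene averaged. The pair farthest from 0 was Bcl2l11, the BH3-only gene Bim (232.4 and 313.3, 1.35-fold higher), and Bak1, a pore-forming death gene (536.1 and 420.4, 1.28-fold lower), and for each the probe sets disagreed in direction. Mcl1, the survival protein that Noxa binds, read 8726 and 7038 (1.24-fold lower), and its 6 probe sets ran from -0.49 to 0.10, in both directions.

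**Figure D3:**
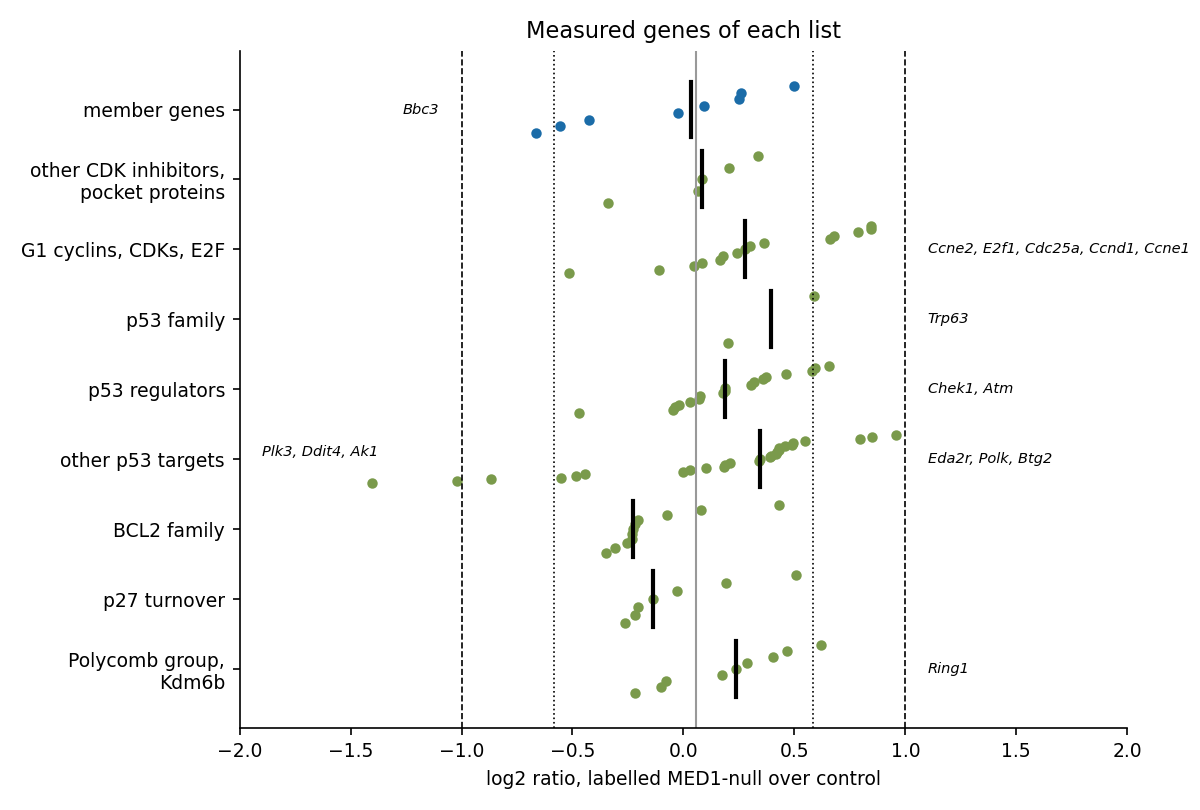
Log2 ratio of each measured gene (points) in the member list and 8 pathway lists, with the list median as a black bar, the median of all measured genes as a grey line, dashed lines at 2-fold and dotted lines at 1.5-fold. Genes past 1.5-fold are named at the sides, points are spread vertically by rank for legibility, and the member median of 0.03 sits beside the grey line while that of other p53 targets sits at 0.34.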

How the data were processed

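Gene expression was measured in 2 primary keratinocyte cultures, 1 array per group. The values are signal intensities per probe set on a linear scale, deposited by the authors and made with MAS5, per the submitters' processing notes, in GeneChip Operating Software, per the labels' design text (version not given in the sources used here). From the values, both arrays had been scaled to a mean of 500.0 after trimming 2% at each end. MAS5 subtracts mismatch signal, so low values are noisy.

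Probe sets were named from GEO's platform annotation: 34945 had 1 symbol, 932 several, of which 0 held a member, and 9160 none. Entrez IDs in the RefSeq gene table of GRCm38.p6 changed 0 symbols. The 64 Affymetrix controls were left out. Signals under 67.7 were raised to it, and the log2 ratio was taken for each gene's brightest probe set by mean signal. Alternatives covered the floor, the scaling and the probe set choice. Calculations used Python 3.11.15, pandas 2.3.3 and statsmodels 0.14.6 (lowess), and were tested on simulated data. The members, the 8 pathway lists and 5 marker lists, and the rule for named genes (members; list genes past 1.5-fold, at most the 6 farthest, or else the 2 farthest from 0; brightest and dimmest marker; Med1, Xist and Eif2s3y) were chosen with earlier results of these data known. Cdk4, Cdk6, Ccnd2, E2f5, Trp73, Mdm4, Mcl1, Skp2, Bmi1, Ezh2, Kit, Col1a2 and Krt10 fall outside that rule and were named after their values were seen.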

Additional observations from a re-analysis of the deposited data

How the results depend on the processing

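No member reached 2-fold under any of the 8 alternatives. The count past 1.5-fold was 1 (Bbc3) as reported, 0 with the floor at the 75th percentile (434.6), where only 5 members were measured and Bbc3 was not, and 2 (Bbc3 and Cdkn2b) under each of the 3 rescalings, median ratio set to 0, quantile and lowess, where 14.9%, 14.6% and 14.6% of all measured genes were past 1.5-fold. The members' median log2 ratio ran from -0.03 to 0.24, and it was below 0 under 2 of the 8. Bbc3 ran from -0.80 to -0.66, Cdkn2b from -0.70 to -0.55, Cdkn1b from -0.53 to -0.21, Cdkn2c from 0.24 to 0.50, Pmaip1 from 0.20 to 0.30, Ccng1 from 0.19 to 0.29 and Mdm2 from 0.03 to 0.10, while Cdkn1a ran from -0.09 to 0.05 and changed sign under 1. Of the lists, the median of the p53 family was 0.98 when the floor lay at the 25th percentile and 0.96 without a floor, where Trp73 had a ratio below the reported floor. The median of the other CDK inhibitors and pocket proteins turned below 0 under 2 alternatives, and the medians of the other 6 lists kept their sign. A value was counted as moved past 0.31 log2 units, the spread between probe sets. No paired analysis was possible because each group has 1 array. No replicate could be left out for the same reason. Low signal limits Bbc3, Cdkn2b and above all Cdkn2a.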

Other observations

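Genes that act on p27 protein and on the Ink4 locus were read beside Cdkn1b, Cdkn2a and Cdkn2b. All 7 measured genes of p27 turnover and transcription were within 1.5-fold, with a median log2 ratio of -0.14. Of these, 5 lay below 0 and 2 above, beside 4984 and 6632 of all 11621 measured genes. Fbxw7, the substrate receptor for cyclin E, gave 541.5 (control) and 769.6 (labelled MED1-null) (1.42-fold higher, both probe sets higher), and Foxo3, a transcription factor known to activate Cdkn1b, read 1103 and 919.1 (1.20-fold lower, all 3 measured probe sets lower). Skp2, which targets p27 for degradation, read 445.5 and 509.4 (1.14-fold higher), the smallest ratio of its 6 measured probe sets, which ran from 0.19 to 0.99 on the log2 scale.

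Polycomb proteins silence the locus of Cdkn2a and Cdkn2b, and Kdm6b removes their histone mark. All 9 of these genes were measured, and 6 lay above 0 and 3 below, beside 6632 and 4984 of all 11621 measured genes. Their median log2 ratio was 0.24. The median was 0.14 when all probe sets of a gene were averaged. Ring1 was the 1 gene past 1.5-fold (220.1 and 337.9, 1.54-fold higher, by 1 probe set), where 7.8% of all measured genes were at least 1.5-fold higher. Bmi1 read 834.2 and 716.5 (1.16-fold lower), with its 2 probe sets in opposite directions, and Ezh2, the methyltransferase, read 1857 and 1756 (1.06-fold lower).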
